A study of Mus musculus with 12 samples.

Results

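A set of 9 genes reported as targets of the microRNA miR-223 was followed in RAW 264.7 cells, a macrophage-like mouse line obtained from a tumour that Abelson virus had induced. They are Nfia, Lmo2, E2f1, Foxo1, Foxo3, Fbxw7, Stmn1, Rhob and Stat3, chosen by name as targets in growth and differentiation that the literature reports. Earlier results of these data were known when they were chosen. All 9 of 9 had at least 1 transcript cluster (the array's unit for a gene) with that symbol alone, 10 clusters in all, out of 22180 symbols on the array. All 9 were also bright enough to be among the 14611 genes tested.

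Cells had been grown to confluency and transfected for 48 h with 1 of 3 oligonucleotides: pre-miR-223, which adds miR-223 activity, anti-miR-223, which blocks it, or an irrelevant scramble. Each group had 4 arrays titled as biological replicates, of the 1 cell line, and no untransfected group was analysed here. The labels do not say whether the replicates were separate transfections on separate days, so the tests measure the spread between these arrays. Values are log2 signals that the authors had normalised between arrays, and RMA, the method named, hides any shift in total RNA. The cluster that lists Mir223 lists a second symbol too and was not used, so delivery of the oligonucleotides was not checked here.

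A microRNA guides Argonaute proteins to messenger RNAs, mainly through bases 2 to 8 of its 5′ end, the seed, which pairs with sites in the 3′ untranslated region. The outcome is usually a modest loss of the messenger, a block of its translation, or both, and an array sees only the loss of the messenger. miR-223 is abundant in myeloid cells and is known for its part in granulocyte differentiation. Most of the 9 targets were described in human cells, in leukaemia, carcinoma or blood progenitors, and others in mouse macrophages.

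The 2 mature arms of mouse miR-223 are shown because the seed defines what the mimic can bind and what the inhibitor can release. Sequences are from RefSeq (GRCm38.p6), and both arms lie in the Mir223 hairpin on the plus strand of chromosome X, at chrX:96242884-96242905 for the 3p arm and chrX:96242842-96242864 for the 5p arm. Seeds are in capitals.
mmu-miR-223-3p: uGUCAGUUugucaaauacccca
mmu-miR-223-5p: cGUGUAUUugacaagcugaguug
Neither seed occurred in any other of the 1738 mature mouse miRNAs of that table. A messenger site that pairs with the 3p seed reads AACUGAC, and with the adenosine that often follows it AACUGACA. The labels do not state which arm the oligonucleotides carry or block. In the hairpin at chrX:96242817-96242926 the capitals mark both arms.
Mir223 hairpin: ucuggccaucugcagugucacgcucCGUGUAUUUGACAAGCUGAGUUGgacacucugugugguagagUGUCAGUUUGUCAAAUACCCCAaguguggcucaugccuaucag

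The arrays had median signals between 2.21 and 2.31 over all clusters. Anti-miR-223 replicate 4 stood apart: 4.30% of its genes lay over 2-fold from their 12-array mean, against at most 0.253% on any other array. The differences of the 9 targets and of the list genes that involve the inhibitor are therefore given with and without it. The 3 groups shared 1 spread estimate, so this array also entered the intervals and limma p-values of pre-miR-223 against scramble. Of 12 macrophage markers 11 were above the level required, including Csf1r, Cd68, Lyz2 and Spi1, with Mrc1 below it. Of the markers of other cells, 3 of 6 for fibroblasts, 3 of 5 for epithelium, 1 of 6 for lymphocytes and 2 of 6 for neutrophils were above it. The mean level of each of these 4 lists per array lay between 1.68 and 2.59, around the level required, log2 2.01. The mean level of the 12 macrophage markers per array ranged from 7.77 to 8.24 with pre-miR-223, from 7.89 to 8.59 with anti-miR-223 and from 8.04 to 8.31 with scramble. With pre-miR-223, 10 of the 11 lay lower than with scramble, with a median difference of -0.27 on the log2 scale. Of all tested genes 65.2% did, with a median of -0.05. With cyclic loess, a further normalisation, 8 of the 11 lay lower, with a median of -0.15, beside 52.1% and -0.01 over all genes. With all arrays, 7 of the 11 lay lower with anti-miR-223 than with scramble (median -0.03, 52.5% of all genes). Between pre-miR-223 and anti-miR-223, 10 of the 11 did (median -0.27, 62.8% of all genes). The 3 fibroblast markers tested all lay higher with pre-miR-223, with a median of 0.09. Their 12-array means, 2.06 to 2.53, were close to the lowest level tested. Of the 3 epithelial markers tested 2 lay higher and 1 lower, with a median of 0.05. The keratin Krt8 had the largest of these differences, 0.22. In cultures measured in bulk, fewer cells of a state and less RNA per cell cannot be told apart, and the part of these markers in the values below was not tested.

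None of the 9 genes passed the test in any comparison. With pre-miR-223 against scramble, 6 lay lower and 3 higher, and the median of the 9 differences was -0.08, beside -0.05 over all tested genes. Of all genes 65.2% lay lower and 34.8% higher, a share close to that of the 9, and with cyclic loess 4 of the 9 and 52.1% of all genes lay lower. With anti-miR-223 against scramble, 4 lay lower and 5 higher, with a median of 0.01, beside -0.01 over all genes, of which 52.5% were lower and 47.5% higher. With pre-miR-223 against anti-miR-223, 6 lay lower and 3 higher, with a median of -0.03, beside -0.04 over all genes, of which 62.8% were lower and 37.2% higher. Limma called 0 of 14611 genes in each comparison (0%), with lowest Benjamini-Hochberg adjusted p of 0.921, 0.988 and 0.946, in the order given. At an unadjusted p under 0.05 there were 711, 294 and 528 genes (4.87%, 2.01% and 3.61%) and 0 of the 9 targets each time, and an ordinary linear model gave 0 calls and 706, 368 and 530 such genes. The adjusted p of the 9 lay between 0.923 and 0.99 with the mimic against scramble, was 1 for each with the inhibitor against scramble, and lay between 0.946 and 0.994 for mimic against inhibitor. Groups did not overlap for 2.98%, 1.55% and 1.67% of all genes and for 0 of the 9 targets. Leaving anti-miR-223 replicate 4 out of the fit changed the spread for mimic against scramble too. There 1371 genes (9.38%) then had an unadjusted limma p under 0.05, with 0 of the 9 targets among them and 0 genes called. The limma adjusted p of the 9 then lay between 0.681 and 0.974 in that comparison. The exact permutation p-values quoted below are 2-sided over the 70 splits of 4 against 4 arrays, whose smallest possible p is 0.0286.

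**Figure D1:**
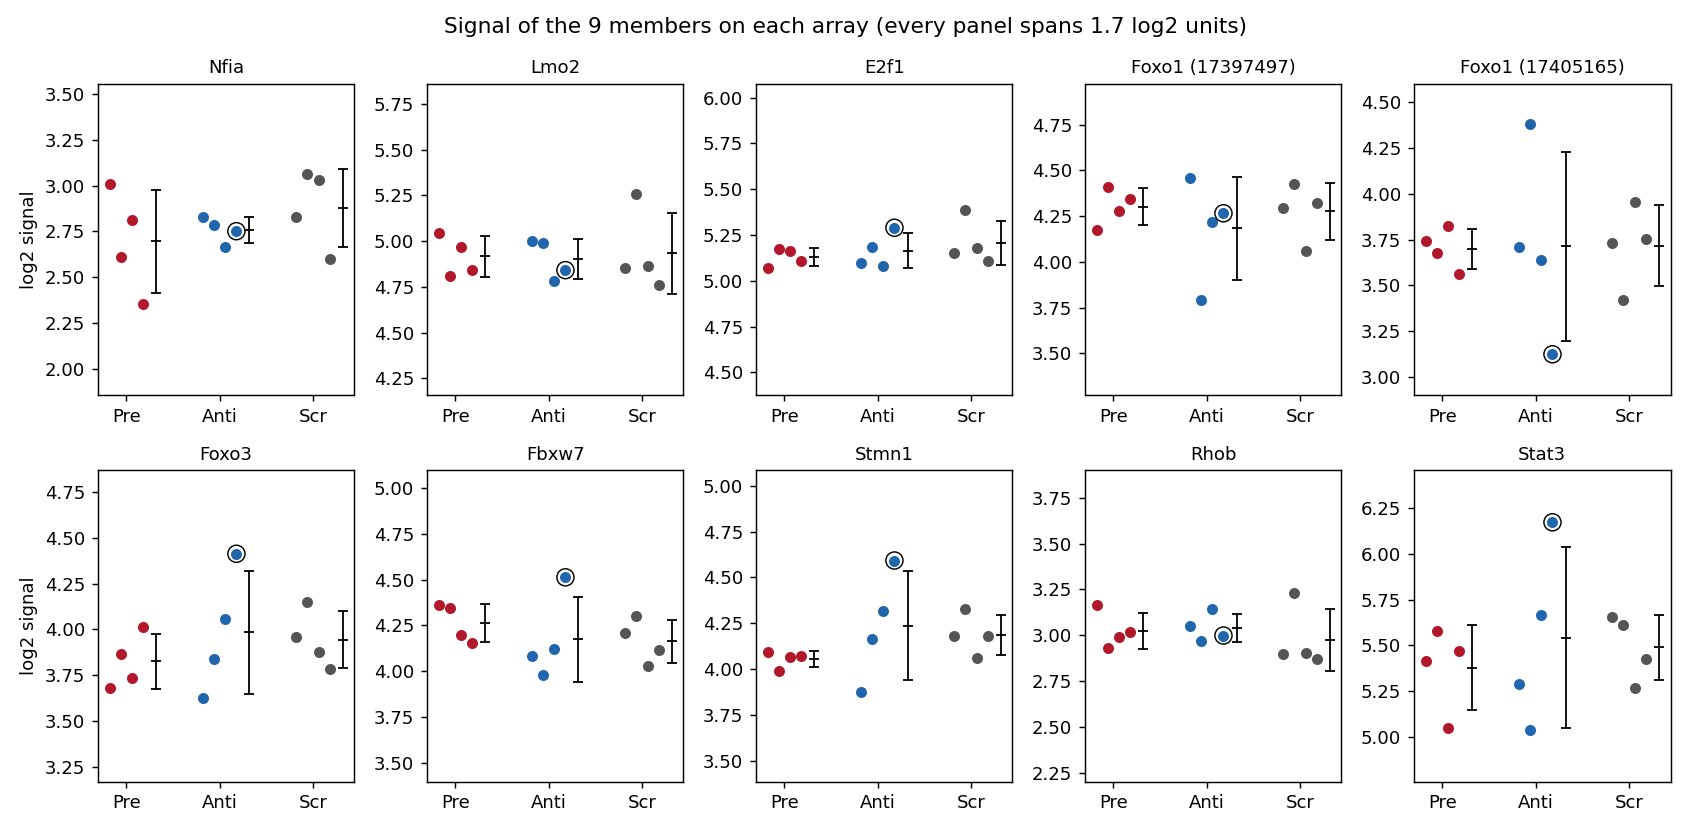
Log2 signal (vertical axes) of the 10 clusters of the 9 genes on the 4 pre-miR-223 (Pre), 4 anti-miR-223 (Anti) and 4 scramble (Scr) arrays, with the group mean and SD beside the points and anti-miR-223 replicate 4 circled. The groups overlap in every panel, and the circled array is the highest of the 12 for Foxo3, Fbxw7, Stmn1 and Stat3.

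Nfia and Lmo2 act in the choice of blood lineage. Nfia, a transcription factor of the nuclear factor I family that restrains granulocyte differentiation, had log2 signals of 3.01, 2.61, 2.81 and 2.35 with pre-miR-223, 2.83, 2.79, 2.66 and 2.75 with anti-miR-223, and 2.83, 3.06, 3.03 and 2.60 with scramble. The mimic arrays included the lowest value of the 12, in replicate 4, yet the other 3 lay within the scramble range. Nfia had the most negative difference of the 9 with the mimic, -0.18 (95% CI -0.49 to 0.12, limma adjusted p = 0.923, exact permutation p = 0.257), and -0.07 without pre-miR-223 replicate 4. With the inhibitor it also lay lower, at -0.12 (-0.43 to 0.18). Its level, with a 12-array mean of 2.78, was close to the lowest level tested, log2 2.01.

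Lmo2, a LIM-domain bridging protein of blood stem and progenitor cells, had 5.05, 4.81, 4.97 and 4.84 with pre-miR-223, 4.999, 4.99, 4.78 and 4.84 with anti-miR-223, and 4.85, 5.26, 4.86 and 4.76 with scramble. Scramble held both the highest and the lowest of the 12 values, so the other groups lay inside its range. The differences were -0.02 (-0.27 to 0.24) for pre-miR-223 and -0.03 (-0.28 to 0.22) for anti-miR-223, each against scramble, and 0.01 (-0.24 to 0.27) between the mimic and the inhibitor. The sign of the first turned with other scalings, to 0.05 after repeated quantile normalisation, 0.08 with cyclic loess and 0.04 with arrays centred on the tested genes.

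E2f1 drives the genes of S-phase entry and is itself held in check by the RB pocket proteins. Its signals were 5.07, 5.17, 5.17 and 5.11 with pre-miR-223, 5.10, 5.19, 5.08 and 5.29 with anti-miR-223, and 5.15, 5.38, 5.18 and 5.11 with scramble. All 12 values lay within 0.32 of each other. E2f1 varied less between replicates than most genes: its residual SD was 0.09, and 3.96% of tested genes had one as small, the median being 0.19. The difference was -0.08 (-0.28 to 0.13, exact permutation p = 0.314) with the mimic, or 0.02 with cyclic loess, and -0.04 (-0.25 to 0.16) with the inhibitor. Scramble replicate 2 was the highest array, and without it these differences were -0.02 and 0.02.

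Foxo1 and Foxo3 are forkhead factors that are kept out of the nucleus by insulin and growth factor signalling through AKT and otherwise favour cell-cycle arrest and stress resistance. The brighter Foxo1 cluster (17397497) had 4.17, 4.41, 4.28 and 4.35 with pre-miR-223, 4.46, 3.79, 4.22 and 4.27 with anti-miR-223, and 4.29, 4.43, 4.06 and 4.32 with scramble. Anti-miR-223 replicates 1 and 2 were the highest and the lowest of the 12. Its difference was 0.03 (-0.27 to 0.32) with the mimic and -0.09 (-0.38 to 0.20) with the inhibitor, or 0.04 without anti-miR-223 replicate 2.

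The other Foxo1 cluster (17405165) had 3.74, 3.68, 3.82 and 3.56 with pre-miR-223, 3.71, 4.38, 3.64 and 3.12 with anti-miR-223, and 3.73, 3.42, 3.96 and 3.75 with scramble. Here anti-miR-223 replicate 2, the lowest array for the brighter cluster, was the highest. This pair was examined after its values were seen. Over the 12 arrays Pearson r between the 2 clusters was -0.710 (permutation p = 0.0165), and the rank coefficient rho was -0.531 (permutation p = 0.0791). The relation rests on a few arrays, since r was -0.06 without anti-miR-223 replicate 2 and scramble replicate 3, the arrays farthest from the median of the brighter cluster, while it was -0.887 without anti-miR-223 replicate 4. In a fit of all single-symbol clusters the dimmer one differed by -0.01 (-0.45 to 0.42) with the mimic and 0.00 (-0.44 to 0.44) with the inhibitor. No group difference was therefore found with either cluster.

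Foxo3 had 3.68, 3.87, 3.74 and 4.01 with pre-miR-223, 3.62, 3.84, 4.06 and 4.41 with anti-miR-223, and 3.96, 4.15, 3.87 and 3.79 with scramble. The inhibitor group spread widest and held the lowest and the highest array. The mimic against scramble gave -0.12 (-0.45 to 0.21, exact permutation p = 0.314), or -0.05 without scramble replicate 2, and the inhibitor 0.04 (-0.29 to 0.37), which became -0.10 (-0.38 to 0.17) without anti-miR-223 replicate 4.

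Fbxw7 encodes the F-box protein that brings MYC, cyclin E and NOTCH to the SCF ubiquitin ligase. It lay higher with the mimic, with 4.36, 4.34, 4.20 and 4.15 with pre-miR-223, 4.08, 3.98, 4.12 and 4.51 with anti-miR-223, and 4.21, 4.30, 4.03 and 4.12 with scramble. Its difference of 0.10 (-0.16 to 0.36, exact permutation p = 0.229) was the most positive of the 9 in that comparison. Without anti-miR-223 replicate 4, the 4 mimic arrays (4.15 to 4.36) lay above the 3 inhibitor arrays left (3.98 to 4.12), a difference of 0.20 (-0.02 to 0.42, limma adjusted p = 0.964). Such groups did not overlap for 4.84% of all genes, and Fbxw7 was the only one of the 9. With that array included the difference was 0.09 (-0.17 to 0.35). The inhibitor against scramble gave 0.01 (-0.25 to 0.27) with all arrays.

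Stmn1 and Rhob act on the cytoskeleton. Stmn1, stathmin, binds tubulin and destabilises microtubules, and had 4.09, 3.99, 4.07 and 4.07 with pre-miR-223, 3.88, 4.16, 4.32 and 4.59 with anti-miR-223, and 4.18, 4.33, 4.06 and 4.18 with scramble. The mimic arrays were tight, at 4.05 ± 0.04 (SD, n = 4), beside 4.24 ± 0.30 with the inhibitor and 4.19 ± 0.11 with scramble, and 3 of the 4 scramble arrays lay above every mimic array. Its exact permutation p of 0.114 with the mimic was the smallest of the 27 from 9 genes and 3 comparisons, at a difference of -0.13 (-0.42 to 0.15, limma adjusted p = 0.935). Stmn1 also had the most negative difference of mimic against inhibitor, -0.18 (-0.47 to 0.10), which was -0.06 (-0.31 to 0.18) without anti-miR-223 replicate 4.

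Rhob, a small GTPase of endosomes and actin that is induced by stress, had 3.16, 2.93, 2.99 and 3.02 with pre-miR-223, 3.05, 2.97, 3.14 and 2.999 with anti-miR-223, and 2.90, 3.23, 2.91 and 2.87 with scramble. Every mimic and inhibitor array lay above 3 of the scramble arrays and below scramble replicate 2. The differences were 0.05 (-0.18 to 0.27) with the mimic and 0.06 (-0.16 to 0.29) with the inhibitor, and 0.13 and 0.15 without scramble replicate 2. Like Nfia, Rhob was close to the lowest level tested.

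Stat3 carries the signal of IL-6 and IL-10 receptors to the nucleus and restrains inflammatory output in macrophages when IL-10 is the ligand. Its signals were 5.42, 5.58, 5.05 and 5.47 with pre-miR-223, 5.29, 5.04, 5.67 and 6.17 with anti-miR-223, and 5.66, 5.61, 5.27 and 5.43 with scramble. It varied most of the 9, over 1.13 from lowest to highest, and both extremes were inhibitor arrays. Its residual SD of 0.33 was as large as or larger than that of 88.9% of tested genes. The difference was -0.11 (-0.55 to 0.33) with the mimic, which became -0.0022 when pre-miR-223 replicate 3 was left out. It was 0.05 (-0.39 to 0.49) with the inhibitor, or -0.16 (-0.49 to 0.18) without anti-miR-223 replicate 4.

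**Figure D2:**
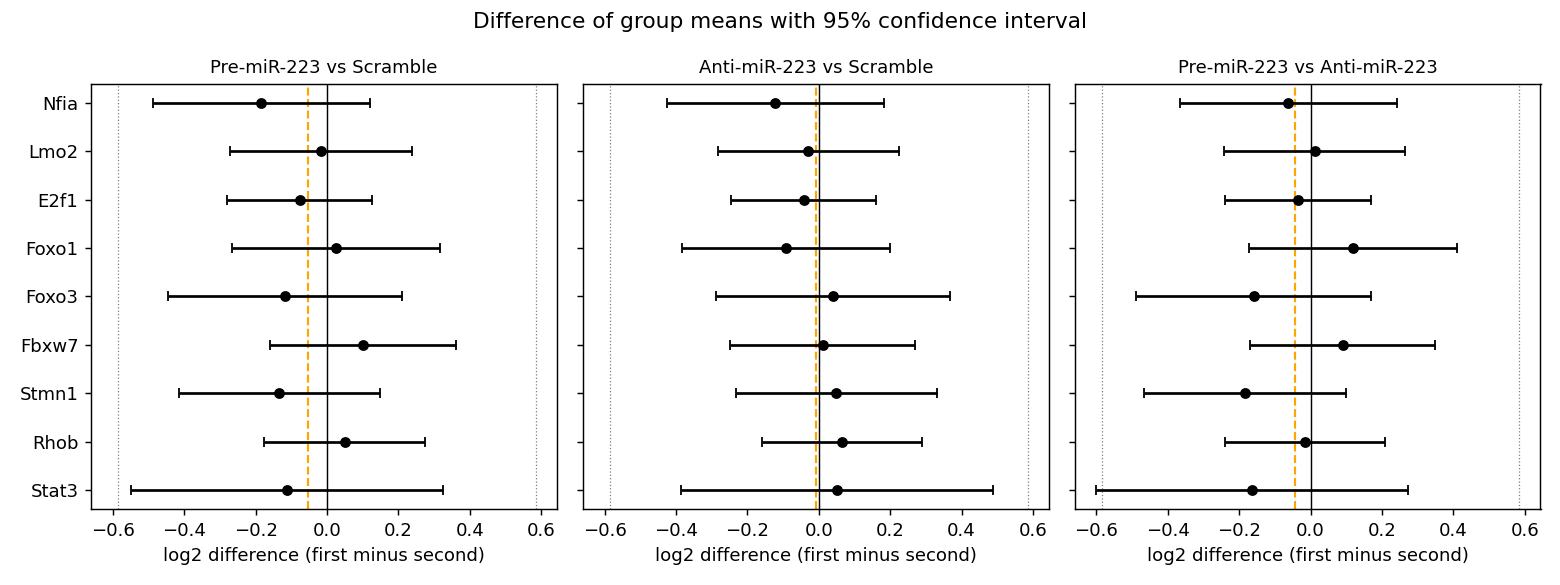
Log2 difference of group means (horizontal axes, first group minus second) with its 95% confidence interval for the 9 genes in 3 comparisons. The dashed line is the median of all tested genes and the dotted lines mark 1.5-fold. Every interval spans 0, and the Stat3 interval in the right panel is the only one to cross a 1.5-fold line.

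How large a change could have been missed is set by the intervals. With the mimic, the lower bound stayed above a 1.5-fold fall for 9 of 9 targets, beside 85.7% of all tested genes. With the inhibitor, the upper bound stayed below a 1.5-fold rise for 9 of 9, beside 93.0% of all genes. Between mimic and inhibitor the lower bound stayed above a 1.5-fold fall for 8 of 9, beside 86.3% of all genes. The exception was Stat3 at -0.16 (-0.60 to 0.27). Without anti-miR-223 replicate 4 Stat3 had 0.05 (-0.29 to 0.38), and its lower bound also stayed above a 1.5-fold fall. The median half-width of the 9 intervals with the mimic was 0.28 on the log2 scale. These limits are for the array signal and not for protein. The counts include Nfia and Rhob, which were close to the lowest level tested, and signal over background was not measured.

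A target that is lost with the mimic and released by the inhibitor would lie lower with pre-miR-223 and higher with anti-miR-223 than with scramble. Foxo3, Stmn1 and Stat3 had this order of means, 3 of 9, and so did 24.5% of all tested genes. Nfia, Lmo2 and E2f1 lay lower with both oligonucleotides, Fbxw7 and Rhob higher with both, and Foxo1 higher with the mimic and lower with the inhibitor. Both comparisons share the scramble arrays, so these orders are not independent. Without anti-miR-223 replicate 4, Foxo3, Stmn1 and Stat3 lay lower with the inhibitor too, at -0.10, -0.07 and -0.16. The count of genes lower with the inhibitor then became 8 of 9, Rhob being the exception, where 63.6% of all genes were lower. Without scramble replicate 2, in place of that array, it was 2 of 9. For the other targets without anti-miR-223 replicate 4, the inhibitor against scramble gave -0.12 for Nfia, -0.01 for Lmo2, -0.08 for E2f1, -0.12 for Foxo1, -0.10 for Fbxw7 and 0.08 for Rhob. Mimic against inhibitor gave -0.06 for Nfia, -0.03 (-0.24 to 0.17) for E2f1, 0.12 (-0.17 to 0.41) for Foxo1, -0.16 (-0.49 to 0.17) for Foxo3 and -0.02 (-0.24 to 0.21) for Rhob. With that array left out the same genes had -0.06, 0.01, 0.15, -0.02 and -0.03, while Lmo2 had -0.01 and Stat3 0.05, and 5 of 9 lay lower, where 52.2% of all genes did. No target had an unadjusted p under 0.05 in either comparison that involves the inhibitor then, where 6.69% and 4.89% of all genes had one, and inhibitor and scramble overlapped for 9 of 9, with 6.55% of all genes not overlapping.

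On scramble replicate 2 all 9 lay above their 12-array mean, by 0.10 to 0.34 with a median of 0.22, where 65.4% of all genes lay above it and the median over all genes was 0.07. On anti-miR-223 replicate 4, set against the mean of the other 11 arrays, Stat3 was higher by 0.77, Foxo3 by 0.54, Stmn1 by 0.47, Fbxw7 by 0.34 and E2f1 by 0.13, while Foxo1, Rhob, Nfia and Lmo2 differed by 0.01, -0.02, -0.03 and -0.08. The other 10 arrays each had between 2 and 6 of the 9 above the mean.

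**Figure D3:**
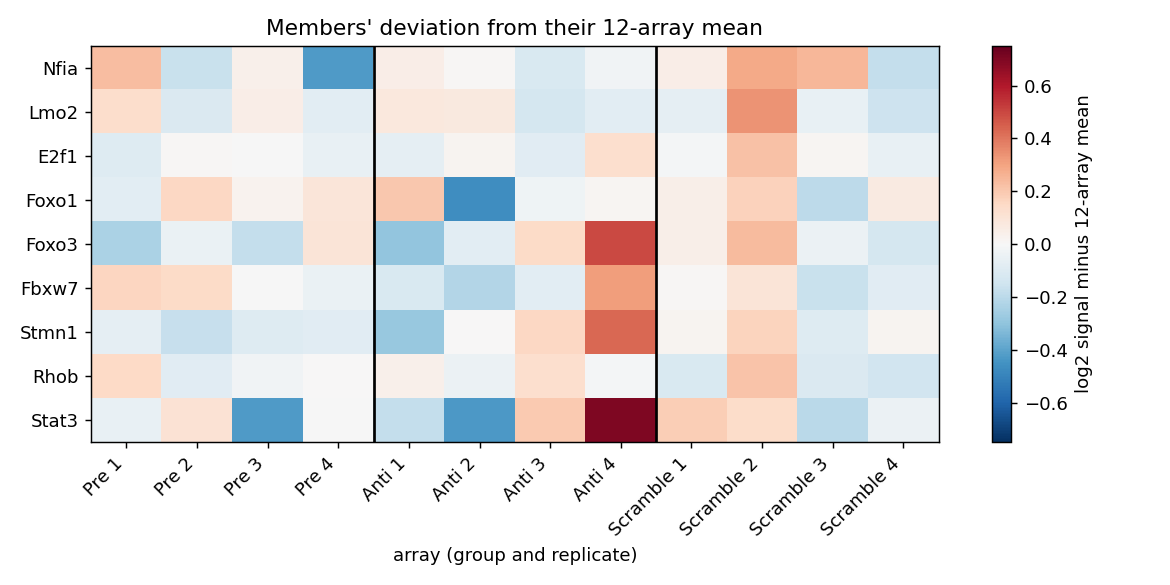
Log2 signal minus the 12-array mean (colour) for the 9 genes (rows) on the 12 arrays (columns, grouped as pre-miR-223, anti-miR-223 and scramble). Scramble replicate 2 is above the mean in every row, and anti-miR-223 replicate 4 holds the largest positive deviation, for Stat3.

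Some of the 9 varied together from array to array. Each array was first centred on its median over all clusters. That median was lowest on anti-miR-223 replicate 4, at 2.21, where the median deviation of the tested genes was 0.08. With this centring 71.4% of tested genes lay lower with the mimic than with scramble, beside 65.2% as supplied. Shifts that the tested genes shared were therefore not removed. Of 36 pairs, 4 had an adjusted p under 0.05 for Pearson r over the 12 arrays and 0 for Spearman rho. They joined Foxo3 with Stmn1 (r = 0.896, permutation p = 2e-04, adjusted p = 0.0072, and rho = 0.622, permutation p = 0.035, adjusted p = 0.253), Foxo3 with Stat3 (r = 0.839, permutation p = 0.00122, adjusted p = 0.022, and rho = 0.825, permutation p = 0.00199, adjusted p = 0.0716), Fbxw7 with Stat3 (r = 0.786, permutation p = 0.00256, adjusted p = 0.0307, and rho = 0.622, permutation p = 0.0352, adjusted p = 0.253) and Stmn1 with Stat3 (r = 0.774, permutation p = 0.00521, adjusted p = 0.0469, and rho = 0.650, permutation p = 0.0261, adjusted p = 0.253). Without the 2 arrays farthest from the median of the first gene, r was 0.686, 0.679, 0.551 and 0.432. All 4 genes were highest on anti-miR-223 replicate 4, and without that array r was 0.779, 0.670, 0.602 and 0.522.

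With the same centring, the patterns of many other genes resembled these. Over the 12 arrays 13.8% of 12976 other genes compared had r above 0.8 with Stat3, 10.8% with Foxo3, 9.96% with Stmn1, 5.84% with Fbxw7 and 3.49% with E2f1, but under 0.1% with each of Nfia, Foxo1, Lmo2 and Rhob. The closest genes were Suclg2 (r = 0.976) and Dcstamp (0.973) for Stat3, Wwp2 (0.976) and Vps18 (0.964) for Foxo3, Osbpl11 (0.962) and Oip5os1 (0.961) for Stmn1, and Fto (0.955) and Heatr3 (0.949) for Fbxw7. For E2f1 they were Cstf2 (0.949) and Rbm7 (0.931), for Foxo1 Rilpl2 (0.898) and Cbs (0.879), and for Nfia Swsap1 (0.893) and BC003965 (0.875). Rhob was closest to Magel2 (0.870) and Zfp560 (0.827), and Lmo2 to Zfp763 (0.814) and Glyctk (0.813). These are the highest of 12976 coefficients for each gene over 12 arrays and are given as descriptions.

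Genes that work with the targets were read from 6 lists, also chosen with earlier results of these data known. Their counts depend on the scaling of the arrays, as the share of all genes does, so the count and the median with cyclic loess stand beside them, where the median over all genes was -0.01, 0.01 and -0.01 in the 3 comparisons. Of all genes 65.2%, 52.5% and 62.8% lay lower in the values as supplied, with medians of -0.05, -0.01 and -0.04. With cyclic loess these shares were 52.1%, 48.1% and 53.0%. Without anti-miR-223 replicate 4, the median over all genes was -0.05 for inhibitor against scramble and -0.01 for mimic against inhibitor. Next to E2f1, 12 of 12 tested E2F, DP and RB family genes lay lower with the mimic, with a median of -0.13, against -0.05 over all genes, or 7 of 12 and -0.02 with cyclic loess. So did 19 of 20 E2F-driven G1/S genes, with a median of -0.16, or 13 of 20 and -0.04 with cyclic loess. None of them passed the test. E2f2, a close relative of E2f1, had the smallest p of the first list with -0.19 (95% CI -0.39 to 0.02). Tk1, thymidine kinase of the DNA precursor pathway, led the second with 6.60, 6.90, 6.65 and 6.69 with pre-miR-223, against 7.28, 7.26, 6.98 and 6.94 with scramble. Its groups did not overlap, as for 2.98% of all genes, and its difference was -0.40 (-0.66 to -0.14, limma adjusted p = 0.921). With anti-miR-223, 9 of the 12 and 17 of the 20 lay lower, with medians of -0.03 and -0.07 beside -0.01 over all genes. Cyclic loess gave 8 and 14, with medians of -0.0049 and -0.03, and leaving out anti-miR-223 replicate 4 gave 11 and 19, with -0.13 and -0.14. There Tfdp1, the DP partner of E2F factors, had -0.11 (-0.32 to 0.09) and Tk1 -0.19 (-0.45 to 0.07), or -0.12 and -0.28 without that array. Between mimic and inhibitor 11 of the 12 and 17 of the 20 were lower, with medians of -0.11 and -0.10 beside -0.04. Cyclic loess gave 8 and 11, with -0.04 and -0.02, and leaving out that array gave 7 and 12, with -0.02 and -0.01. E2f2 had -0.12 (-0.32 to 0.09) and Tk1 -0.21 (-0.47 to 0.05) in this comparison, or -0.11 and -0.13 without that array.

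For the FOXO factors, 16 of 17 tested relatives and FOXO-driven genes lay lower with the mimic, with a median of -0.07, or 9 of 17 and -0.01 with cyclic loess. With the inhibitor it was 12 of 17, with a median of -0.03, or 10 of 17 and -0.02 with cyclic loess and 14 of 17 and -0.12 without anti-miR-223 replicate 4. Between mimic and inhibitor it was 10 of 17, with a median of -0.02. Cyclic loess gave 7 of 17 and 0.03 there, and leaving out that array 7 of 17 and 0.03. None passed the test. Cited2, a transcription cofactor, had the smallest p with the mimic, at 9.74, 9.93, 9.70 and 9.46 against 10.27, 9.99, 9.85 and 9.92 with scramble, a difference of -0.30 (-0.56 to -0.03). Foxo6 had it with the inhibitor, at -0.31 (-0.63 to -0.00066), and Pik3ip1, an inhibitor of PI3 kinase, between mimic and inhibitor, at -0.20 (-0.43 to 0.02). Leaving out the outlying inhibitor array gave -0.21 for Foxo6 and -0.18 for Pik3ip1. Foxo6 and Pik3ip1 were close to the lowest level tested.

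For Fbxw7, the list held ligase subunits and substrates, and also Usp28 and the F-box gene Fbxw11. With the mimic 12 of 16 tested genes of this list lay lower (median -0.08, or 7 of 16 and 0.04 with cyclic loess). It was 11 of 16 with the inhibitor (median -0.05) and 10 of 16 between mimic and inhibitor (median -0.04), and none passed. For the inhibitor against scramble, cyclic loess gave 9 of 16 (median -0.05) and leaving out anti-miR-223 replicate 4 gave 12 of 16 (median -0.07). For mimic against inhibitor they gave 7 of 16 (median 0.04) and 8 of 16 (median 0.02). The kinase gene Aurka had -0.26 (-0.66 to 0.14) with the mimic. Jun, an AP-1 subunit, had 6.01, 6.13, 6.37 and 7.13 with anti-miR-223 against 5.92, 6.42, 5.90 and 6.17 with scramble, a difference of 0.31 (-0.13 to 0.76) that was 0.07 without anti-miR-223 replicate 4. Usp28, a deubiquitinase that opposes FBXW7, had -0.48 (-1.01 to 0.05) between mimic and inhibitor, which became -0.30 when the outlying inhibitor array was left out and -0.28 when pre-miR-223 replicate 4 was.

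The list for Stat3 held STAT family and STAT3-driven genes, and also cytokine receptors and JAK family kinases that act before STAT3. Of its tested genes, 16 of 20 lay lower with the mimic and 15 of 20 with the inhibitor, with medians of -0.10 and -0.05. With cyclic loess these were 9 of 20 and 14 of 20, with medians of 0.01 and -0.02, and without anti-miR-223 replicate 4 the inhibitor gave 18 of 20 and -0.14. Between mimic and inhibitor 14 of 20 lay lower, with a median of -0.09. Cyclic loess gave 10 of 20 and -0.02 there, and leaving out that array 9 of 20 and 0.02. None of the 20 passed the test. The 4 genes that lay higher with the mimic included Socs3, the STAT3-induced inhibitor of cytokine receptors, which had 5.14, 4.04, 4.66 and 5.32 with pre-miR-223, 4.42, 4.60, 3.89 and 3.36 with anti-miR-223, and 3.80, 3.87, 4.36 and 4.24 with scramble. All mimic arrays but replicate 2 lay above every scramble and inhibitor array. The difference was 0.73 (0.11 to 1.35, limma adjusted p = 0.921) against scramble and 0.73 (0.10 to 1.35, limma adjusted p = 0.946) against anti-miR-223. It did not pass the test over all genes, was 0.34 against scramble with cyclic loess and 0.49 against anti-miR-223 without replicate 4 of that group. Bcl3, another STAT3-responsive gene, had -0.23 (-0.50 to 0.03) with the inhibitor, or -0.24 without that array.

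For Lmo2 and Nfia, the list held LMO2 complex and NFI family genes with Zfpm1, and also the myeloid genes Spi1, Cebpb and Csf1r. Spi1 and Csf1r were among the macrophage markers too. With the mimic 12 of 15 tested genes of this list lay lower, with a median of -0.16, or 12 of 15 and -0.07 with cyclic loess. With the inhibitor it was 7 of 15, with a median of 0.01, or 7 of 15 and 0.04 with cyclic loess and 9 of 15 and -0.07 without anti-miR-223 replicate 4. Between mimic and inhibitor it was 10 of 15, with a median of -0.15. Cyclic loess gave 10 of 15 and -0.07 there, and leaving out that array 13 of 15 and -0.08. None passed. Zfpm1, the GATA cofactor FOG-1, had -0.39 (-0.74 to -0.05) with the mimic and -0.28 (-0.62 to 0.07) with the inhibitor, which became -0.39 when anti-miR-223 replicate 4 was left out and -0.17 when replicate 2 of that group was. Nfic, the relative of Nfia singled out after its values were seen, had 4.41, 4.44, 4.38 and 4.37 with pre-miR-223, 4.48, 4.23, 4.92 and 4.66 with anti-miR-223, and 4.79, 4.84, 4.46 and 4.80 with scramble. Its mimic and scramble arrays did not overlap, as for 2.98% of all genes, at a difference of -0.32 (-0.62 to -0.03, limma adjusted p = 0.921). Spi1, the myeloid factor PU.1, had -0.35 (-0.71 to 0.01) between mimic and inhibitor, or -0.21 without anti-miR-223 replicate 4. Over the 6 lists 0 genes were called in any comparison, as over all genes.

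**Figure D4:**
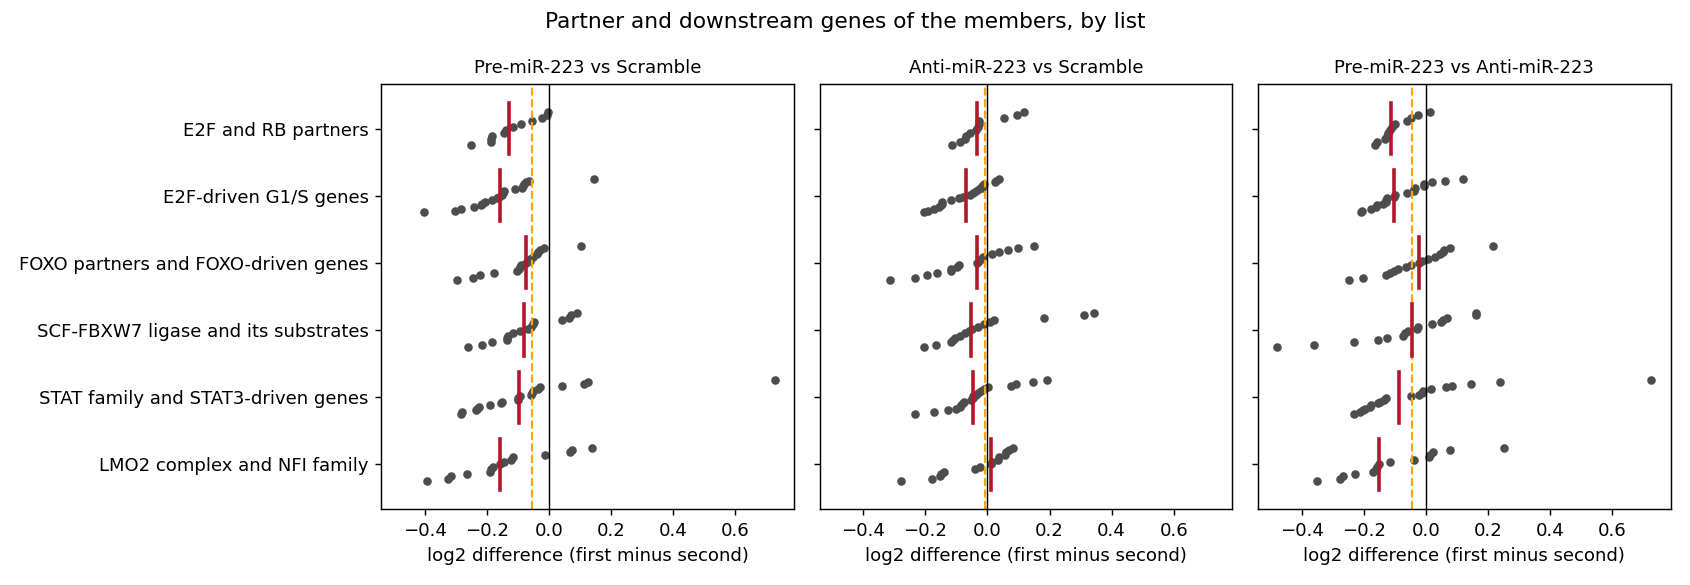
Log2 differences (horizontal axes, first group minus second) of the tested genes of 6 lists of partners and downstream genes, 1 point per gene, in 3 comparisons. The red bar is the list's median and the dashed line the median of all tested genes. All 12 E2F and RB partners lie below 0 in the left panel (7 of them with cyclic loess), and the point farthest right there is Socs3 at 0.73.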

How the data were processed

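Per the submitters' processing notes, Affymetrix Expression Console, RMA and Partek were used, with no version or order given, and the authors deposited log2 signals for 41345 transcript clusters on 12 arrays. Base 2 was assumed because RMA yields it. No build is given for the array, so genes carry no coordinates. A platform table gave 1 symbol to 23521 clusters, several to 1814 and none to 16010. Of those with 1 symbol, 23328 matched a RefSeq gene by identifier.

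Each symbol was represented by its brightest cluster, and genes with a 12-array mean above the 40th percentile of clusters (log2 2.01) were tested. Limma 3.58.1 in R 4.3.3 fitted 3 groups in 1 model (9 residual degrees of freedom, no covariate), with Benjamini-Hochberg adjustment over 14611 genes and a threshold of 0.05. It was tested on simulated data. Alternatives covered clusters, level filters, normalisation, the linear model, array weights, a replicate block and leaving out each array; no 2 arrays were identical. Precision is limited by 4 arrays a group, and no array has a read depth. The genes and lists were chosen with earlier results of these data known. The text names the 9 targets, the gene of smallest p in each list and comparison, and for each target the 2 genes of highest r, leaving out predicted, olfactory, vomeronasal and small RNA genes. Nfic was added. The list for 2 of the targets, Rhob and Stmn1, is not reported here. Correlation p-values used 100000 permutations.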

Additional observations from a re-analysis of the deposited data

Results flagged for a closer look

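Rhob on scramble replicate 2 was far from the rest of its group, at a log2 signal of 3.23 beside 2.87 to 2.91 on the other 3 scramble arrays. The gap to the nearest was 0.905 of the group's range, past Dixon's limit for 4 values. It was the only such array among 30 groups of 4 values examined, where chance gives about 1 in 20. All 9 genes lay above their 12-array mean on that array.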

How the results depend on the processing

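No gene was called in any of the 3 comparisons under any alternative or without any array. Of 540 values of the 9 targets under alternatives, 497 kept their direction and side of the threshold and 43 changed sign, in 16 of 27 results. The cause was not tested. None of 419 values of the named partner genes changed sign. Those genes were picked by smallest p in these same data, and Nfic after its values were seen. Their steady sign therefore cannot be compared with that of the 9 targets. With pre-miR-223 against scramble, Lmo2 was 0.052 after repeated quantile normalisation, 0.077 with cyclic loess, 0.070 with array weights and 0.035 with arrays centred on the tested genes, an alternative chosen after seeing the data. E2f1 was 0.020 with cyclic loess and Foxo1 -0.000306 with array weights. With anti-miR-223 against scramble, Fbxw7 was -0.0005775 with arrays centred on their median. Array weights gave 0.021 for Lmo2, -0.0097 for Foxo3, -0.045 for Fbxw7, -0.018 for Stmn1 and -0.034 for Stat3 there, so that 7 of 9 lay lower. With pre-miR-223 against anti-miR-223, E2f1 was 0.017 after repeated quantile normalisation and 0.039 with cyclic loess, Nfia 0.034 with array weights and Rhob 0.016 with arrays centred on the tested genes.

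Leaving out 1 array at a time, Lmo2 ranged from -0.074 to 0.091 and Foxo1 from -0.047 to 0.076 with pre-miR-223 against scramble. With anti-miR-223 against scramble, Lmo2 ranged from -0.086 to 0.079, E2f1 from -0.085 to 0.017, Foxo1 from -0.18 to 0.038, Foxo3 from -0.10 to 0.16, Fbxw7 from -0.10 to 0.075, Stmn1 from -0.069 to 0.17 and Stat3 from -0.16 to 0.22. The count of targets lower there ranged from 2 without scramble replicate 2 to 8 without anti-miR-223 replicate 4. With pre-miR-223 against anti-miR-223, Nfia ranged from -0.17 to 0.053, Lmo2 from -0.032 to 0.047, E2f1 from -0.062 to 0.0076, Foxo1 from -0.013 to 0.21, Rhob from -0.061 to 0.018 and Stat3 from -0.33 to 0.046.

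Arrays with the same replicate number did not deviate together (r from -0.50 to 0.39), so the numbers were not taken as pairs. A fit with the replicate block called 0 genes in each comparison and gave 547, 248 and 408 genes at an unadjusted p under 0.05, in place of 711, 294 and 528. Nfia and Rhob had the lowest mean levels of the 9 targets, and signal over background was not measured here. The scramble arrays enter both comparisons against it.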
